A study of Mus musculus with 24 samples.

Results

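The effect of chronic mild stress (CMS) on gene expression in the mouse prefrontal cortex (PFC) was measured on 6 of the 24 arrays of the series, which are the arrays labelled prefrontal cortex. They comprise 3 CMS arrays and 3 control arrays. All mice were wild-type C57BL/6 males, bought at 6 to 8 weeks of age, before the stress period. The CMS mice met unpredictable stressors, including restraint, cage tilting, wet bedding and exposure to a rat on 6 days a week for 4 weeks. The control mice stayed in standard housing. The other 18 arrays hold the same 2 conditions in hippocampus, amygdala and cerebral cortex, with 3 arrays per condition and area. The platform was the Affymetrix Mouse Genome 430 2.0 array, whose short probes are grouped into probe sets that each read 1 transcript region. After 64 control probe sets were set aside, 45037 probe sets were tested, and 34945 of them carried 1 gene symbol and gave values for 18193 genes. The deposited values are on a log2 scale with each probe set set to a median of 0 over the 24 arrays. A value of 1 therefore lies 2-fold above that probe set's middle array, and levels of different genes cannot be ranked. The methods mention pooled RNA for the arrays and the results describe 3 independent mice per group, so p-values measure the spread between arrays, which may be in part technical.

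The PFC is the frontal part of the cerebral cortex and takes part in planning, in working memory and in the control of stress responses. Chronic mild stress is a rodent procedure in which varied minor stressors are repeated for weeks to produce a depression-like state. Immediate early genes are switched on within minutes of neuronal firing and encode transcription factors such as Fos and Egr1, and they are widely read as a record of recent activity. The choroid plexus, a secretory epithelium inside the brain ventricles, makes cerebrospinal fluid and secretes transthyretin. Neutrophils are blood-borne white cells with granules full of antimicrobial proteins.

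The tissue label was checked in the control arrays first. Against the mean of the other 3 control areas, 246 of 18193 genes (1.35%) stood higher in the control PFC and 101 (0.555%) stood lower, at a limma adjusted p under 0.05 and a log2 difference over 1. The PFC arrays were set apart chiefly by genes of the olfactory bulb, which lies directly in front of the frontal cortex. Of 18 olfactory bulb genes measured, 13 were higher in the PFC by that rule, and the median difference of the list was 2.82 on the log2 scale. Doc2g, a marker of bulb output neurons, was higher by 5.91 ± 0.09 (SE). S100a5, a calcium-binding protein of olfactory cells, was higher by 8.05 ± 0.06, but is counted below in the list of olfactory sensory neurons. Tbx21 and Eomes, transcription factors of bulb output neurons, were higher by 4.18 ± 0.08 and 5.29 ± 0.08. Th, the dopamine-synthesizing enzyme of bulb interneurons, was higher by 5.52 ± 0.18. Striatal genes stood apart too, with 18 of 25 higher and a list median of 1.87. Drd2, the D2 dopamine receptor, was higher by 4.32 ± 0.23. The list of cortical layer genes had a median of 0.36 with 3 of 33 higher by the rule, and the hippocampal list had a median of -0.73. The arrays labelled PFC thus carried RNA of olfactory bulb and striatal genes in both conditions, beside cortical genes. The part of these neighbouring tissues in the results below was not tested, and their lists are given beside them.

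**Figure D1:**
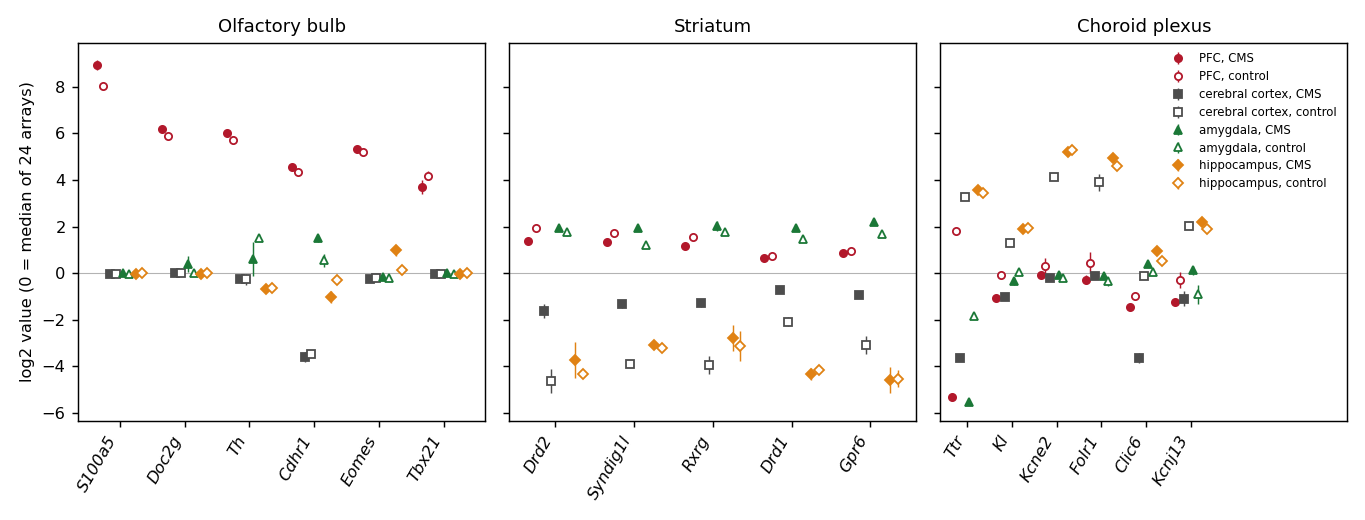
Group means of marker genes of the olfactory bulb, the striatum and the choroid plexus in the 4 brain areas, with filled symbols for CMS and open symbols for control arrays (log2 value, where 0 is the median of the 24 arrays; bars are SD, n = 3 arrays). The genes of the olfactory bulb panel are high in the PFC arrays of both conditions, while Ttr is at -5.33 in CMS and 1.82 in control. S100a5, drawn in that panel but counted in the list of olfactory sensory neurons, is at 8.94 in CMS and 8.04 in control.

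The arrays of one condition resembled each other more than those of the other. Over all probe sets, Pearson's r lay between 0.805 and 0.838 within a condition and between 0.613 and 0.648 across conditions. The median probe set had an SD of 0.0381 over the CMS arrays and 0.0479 over the control arrays. By limma with Benjamini-Hochberg adjustment over all probe sets, with a call at an adjusted p below 0.05 and more than a 2-fold change, 45 probe sets (0.0999%) were higher in CMS and 49 (0.109%) were lower. The arrays of the 2 conditions did not overlap in any of these 94 probe sets. This follows largely from how they were chosen and is no separate support. With a gene's probe sets averaged, 28 genes (0.154%) were higher and 17 (0.0934%) were lower. Of these 45 genes, 23 higher and 13 lower ones kept an adjusted p under 0.05 whichever 1 of the 6 arrays was left out. Without the fold threshold 809 genes (4.45%) were higher and 714 (3.92%) were lower, and these 2 shares are the background against which the gene lists below are read. That total of 1523 fell to between 500 and 985 when any 1 array was left out, so counts without the fold threshold are less firm. The median log2 fold change of all genes was 0.02.

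Secreted and detoxifying proteins of the nasal and airway lining were among the largest increases. Of 26 such genes measured, 8 were higher in CMS and none was lower, and all 8 were past the 2-fold threshold. The list median was 0.05, because its other 18 members did not pass the test. The study itself named 3 of the 26 from these arrays, and 5 of the remaining 23 were higher. The list was chosen with earlier results of these data known, so neither count is independent evidence of direction. As gene values, all 8 kept an adjusted p under 0.05 without any 1 array.

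Bpifb9b, a BPI-fold secreted protein of the olfactory epithelium, had values of 6.16, 6.23 and 6.11 in the CMS arrays, against -0.01, -0.02 and -0.05 in the control arrays. All 3 CMS arrays were high by the same amount and all 3 control arrays sat at the middle of the series. The log2 fold change was 6.19 ± 0.03 (SE; limma adjusted p = 4.57e-07), and both probe sets of the gene were called, at 91.7-fold and 58.4-fold. Bpifb3, of the same family, was at 4.38, 4.76 and 4.56 in CMS, against 0.22, -0.02 and -0.03 in control. Bpifa1, an airway surface protein that binds bacterial lipids, was at 2.82, 2.80 and 3.48 in CMS, against -0.03, -0.04 and -0.04 in control. For these 3 genes the control arrays lay at the level of the median array, so a fold change rests almost wholly on the CMS arrays. No detection call was at hand, and where a control level lay at the floor of the array, the fold is a lower bound.

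Enzymes of the same tissue followed. Cyp2f2, a cytochrome P450 of airway and olfactory lining, was at 3.00, 4.19 and 3.99 in CMS, against -0.02, 0.43 and 0.12 in control, with a log2 fold change of 3.55 ± 0.34 (adjusted p = 0.00875). Cyp2g1, a P450 of the olfactory mucosa, was at 2.69, 3.68 and 3.88 in CMS, against 0.19, -0.01 and 0.39 in control. CMS replicate 1 was the lowest CMS array for both P450 genes, and the groups did not overlap. Among all probe sets, the single one of Cyp2g1 missed the threshold without CMS replicate 2 or any 1 control array (adjusted p of up to 0.0567) and that of Cyp2f2 without control replicate 3 (0.0555). Cbr2, a carbonyl reductase of airway cells, was already above the series median in control arrays at 1.24, 1.34 and 0.95, and stood at 4.34, 4.11 and 4.36 in CMS. Acbd7, an acyl-CoA binding protein, rose by 2.72 ± 0.20 and Sec14l3, a lipid transfer protein of ciliated airway cells, by 2.31 ± 0.10. In Sec14l3, 2 of its 3 probe sets were called, at 10.6-fold and 9.50-fold, and the third differed by 1.22-fold (adjusted p = 0.426). Each of the called ones missed the threshold in 4 of the 6 fits without 1 array, which include the 3 without a CMS array and 1 without control replicate 2 or 3, with adjusted p of up to 0.0783 and 0.0614. Muc5b, Scgb1a1 and Reg3g, secreted products of airway and gut lining, lay between -0.05 and 0.05 on every PFC array.

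Genes of olfactory sensory neurons, whose axons end in the olfactory bulb, changed too. Of 15 measured, 4 were higher and 1 was lower, or 2 to 3 and 0 without any 1 array. Omp, the olfactory marker protein, was at 4.63, 4.54 and 4.46 in CMS, against 3.63, 3.48 and 3.71 in control (log2 fold change 0.94 ± 0.07, adjusted p = 0.00626), but its sign turned to -0.24 (adjusted p = 0.0215) after quantile normalization of the arrays. Stoml3, a membrane protein of sensory cilia, was at 4.24, 4.00 and 4.05 in CMS, against 1.61, 2.24 and 2.64 in control. Its adjusted p of 0.0189 reached up to 0.0677 without CMS replicate 1, 2 or 3 or control replicate 2. Among the olfactory bulb genes themselves 2 of 18 were higher and 1 was lower, with a median of 0.11. After quantile normalization none was higher and 10 were lower, with a median of -0.41, so the direction of the bulb list was not settled. The mean of the bulb list ranged from 2.66 to 2.75 over the CMS arrays and from 2.55 to 2.58 over the control arrays. The corresponding range of the nasal list was 1.12 to 1.26 in CMS and 0.04 to 0.08 in control.

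**Figure D2:**
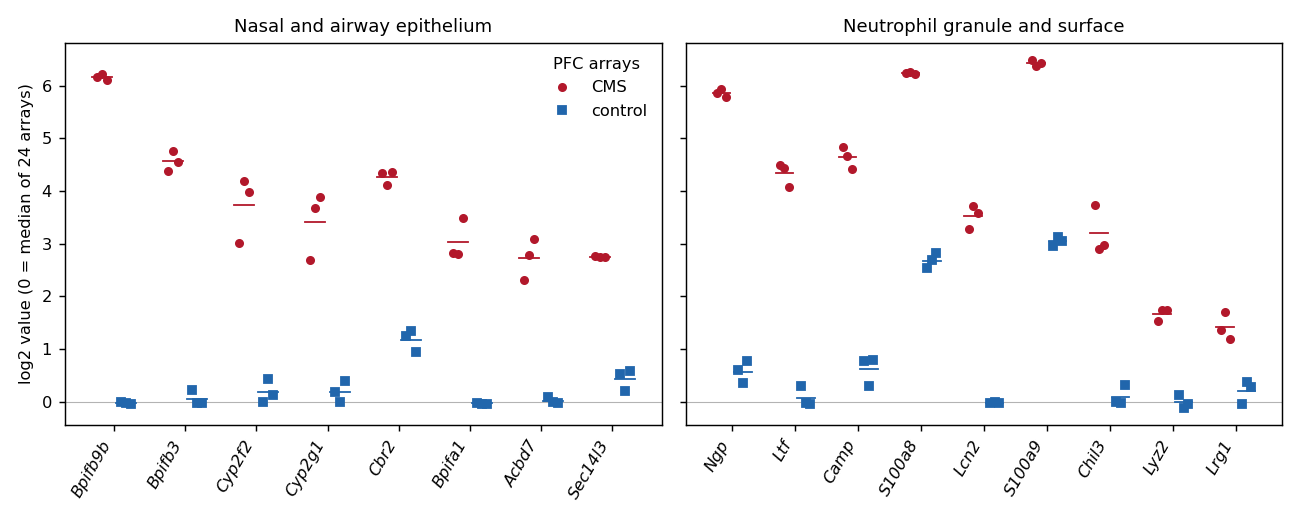
Values of the called nasal and airway genes (left) and neutrophil genes (right) on each PFC array, with CMS as red circles and control as blue squares (log2 value, where 0 is the median of the 24 arrays; short lines are group means, n = 3 arrays). These genes were chosen for their difference on the same arrays, so it is no separate support that none overlaps between the conditions. Bpifb9b has the widest gap, with 6.11 to 6.23 in CMS and -0.05 to -0.01 in control.

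Granule genes of neutrophils rose as well. Of 31 neutrophil genes measured, 12 were higher in CMS, 9 of them more than 2-fold, and none was lower, with a list median of 0.26. Of the 24 that the study did not name from these arrays, 5 were higher, which is likewise not independent evidence. Ngp, the neutrophilic granule protein, was at 5.86, 5.94 and 5.79 in CMS, against 0.59, 0.35 and 0.76 in control, a 39.3-fold increase (log2 fold change 5.30 ± 0.11, limma adjusted p = 9.39e-05). Ltf, the iron-binding lactoferrin, was at 4.50, 4.44 and 4.09 in CMS, against 0.29, -0.02 and -0.04 in control. Camp, the cathelicidin antimicrobial peptide, was at 4.84, 4.66 and 4.43 in CMS, against 0.77, 0.30 and 0.79 in control. These 3 genes belong to the secondary granules, and for each the lowest CMS array lay more than 3 log2 units above the highest control array.

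S100a8 and S100a9, which together form the calcium-binding protein calprotectin, behaved differently at baseline. S100a8 was at 6.24, 6.27 and 6.22 in CMS, against 2.53, 2.68 and 2.81 in control, and S100a9 was at 6.49, 6.37 and 6.43 in CMS, against 2.96, 3.12 and 3.05 in control. Control PFC arrays were thus already 4.51 ± 0.23 (S100a8) and 4.50 ± 0.12 (S100a9) above the other control areas on the log2 scale. Lcn2, a siderophore-binding protein that other cells also make, was at 3.28, 3.71 and 3.59 in CMS and between -0.02 and -0.01 on all control arrays. Chil3, a chitinase-like protein of myeloid cells and airway lining, rose by 3.10 ± 0.25. Lyz2, the myeloid lysozyme, rose by 1.69 ± 0.09, and Anxa1, an annexin of granulocytes, by 0.59 ± 0.04. Lrg1, a leucine-rich glycoprotein, rose by 1.22 ± 0.17 but missed the threshold without CMS replicate 1 or control replicate 3, with an adjusted p of up to 0.0678.

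Other members of the list did not pass the test. Mpo, the myeloperoxidase of primary granules, was at 0.28, 0.09 and 0.12 in CMS, against -0.02, -0.02 and -0.04 in control (adjusted p = 0.0971). Elane, the neutrophil elastase, was at 0.00, 0.45 and 0.00 in CMS, against -0.02, -0.01 and -0.03 in control (adjusted p = 0.438). Itgam, the CD11b integrin of myeloid cells, had values that overlapped between the conditions. The mean of the whole neutrophil list ranged from 1.37 to 1.44 over the CMS arrays and from 0.27 to 0.29 over the control arrays.

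Other blood and vessel genes moved by smaller amounts. Alas2, the heme-synthesis enzyme of red cell precursors, was at 0.95, 1.37 and 1.20 in CMS, against 0.02, -0.03 and -0.02 in control (log2 fold change 1.18 ± 0.11, adjusted p = 0.00822), and was 1 of 2 erythroid genes of 13 that rose. Adult haemoglobin is read by probe sets shared between its near-identical genes, which lie outside that list. The shared beta-globin probe set was at 0.83, 0.83 and 0.93 in CMS, against 0.26, 0.21 and 0.31 in control (log2 fold change 0.61 ± 0.04, adjusted p = 0.00715). The 3 shared alpha-globin probe sets (Hba-a1 and Hba-a2) rose by 0.77 ± 0.06, 0.47 ± 0.06 and 0.44 ± 0.04, the middle one with an adjusted p of up to 0.0729 without any 1 CMS array or control replicate 1 or 2. Red cell transcripts thus moved with the neutrophil genes on these arrays, and their part in the neutrophil result was not tested. Vwf, the von Willebrand factor of endothelial cells, was at 1.30, 1.20 and 1.40 in CMS, against -0.70, -0.51 and -0.16 in control, with a log2 fold change of 1.76 ± 0.15. Of 26 endothelial and mural genes 5 rose and 1 fell, and the other 4 that rose were Itm2a at 0.42 ± 0.02, Slc2a1 at 0.37 ± 0.03, Cldn5 at 0.30 ± 0.03 and Abcb1a, which missed the threshold without any 1 array other than control replicate 3 (adjusted p of up to 0.0834). Ctla2a, a cysteine protease inhibitor first described in T cells, was at 0.63, 0.56 and 0.64 in CMS, against -0.81, -0.88 and -0.94 in control. None of 18 lymphocyte genes rose. Cd4, the T helper cell co-receptor, fell by 1.19 ± 0.12 (adjusted p = 0.0106), but only 1 of its 2 probe sets differed, by 4.97-fold, and the other differed by 1.05-fold (adjusted p = 0.687). The first of these probe sets missed the threshold without CMS replicate 1 or 3 or control replicate 2 or 3 (adjusted p of up to 0.0698).

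Cytokine genes gave almost no calls. Of 33 TNF, NF-kB and cytokine genes none rose and 1 fell, with a median of 0.02. Il1b and Tnf, the leading inflammatory cytokines, differed by 0.02 ± 0.02 and 0.03 ± 0.02. Both lay within 0.06 of 0 on all 6 arrays, as probe sets at the array floor do, so these values do not show whether their level stayed the same. Interferon-stimulated and antigen-presentation genes had a median of 0.21, and 8 of 32 rose with none falling, though between 3 and 6 passed when any 1 array was left out. B2m, the light chain of MHC class I, rose by 0.45 ± 0.03 and H2-K1, a class I heavy chain, by 0.42 ± 0.03. Ifitm3, an antiviral membrane protein, rose by 0.40 ± 0.04. Of 27 microglial genes 4 rose and 1 fell, or 1 to 2 and 0 to 1 without any 1 array, led by Ctss, a lysosomal protease, at 0.43 ± 0.03.

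Immediate early genes were lower in CMS. Of 55 measured members 26 were lower and 3 were higher, against 3.92% and 4.45% of all genes, with a list median of -0.23. Between 21 and 25 were lower when any 1 array was left out, and 8 or 9 of them were past the 2-fold threshold in each of those fits, against 8 with all arrays. Of the 51 members that the study did not name from these PFC arrays, 22 were lower. This list too was chosen with earlier results of these data known. The count of lower members was 26 after quantile normalization and after median centring, 21 by the methods' t-test and 13 in the fit blocked by replicate number.

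The Fos family led the decrease. Fosb was at 0.67, 0.53 and 0.62 in CMS, against 2.58, 2.65 and 2.76 in control, a 4.16-fold decrease (log2 fold change -2.06 ± 0.06, limma adjusted p = 3.26e-04). Fos was at -0.45, -0.42 and -0.39 in CMS, against 0.81, 0.84 and 0.86 in control. Fosl2, another partner of Jun in the AP-1 factor, was at -0.42, -0.11 and 0.01 in CMS, against 0.91, 1.04 and 1.00 in control. CMS arrays of Fosl2 were spread over more than those of Fos, yet all lay below every control array. The called Fosl2 probe set, at 2.69-fold, missed the threshold whenever an array other than CMS replicate 1 was dropped (adjusted p of up to 0.129). The other Fosl2 probe set fell 1.85-fold, which is short of a call. It kept an adjusted p of at most 0.0203 whichever array was dropped.

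Nuclear receptor and synaptic members fell by similar amounts. Nr4a1, an orphan nuclear receptor induced by firing, fell by 1.15 ± 0.04, and all 3 CMS arrays lay between -0.34 and -0.32 while the control arrays lay between 0.74 and 0.88. Arc, which acts at the synapse in receptor trafficking, was at -0.32, -0.18 and -0.07 in CMS, against 0.98, 1.03 and 1.02 in control. Npas4, a neuron-specific factor that responds to calcium entry, fell by 1.19 ± 0.09. Nfil3, a bZIP repressor that also belongs to the clock, fell by 1.19 ± 0.04. Below the 2-fold threshold, Btg2 fell by 0.97 ± 0.07, Junb by 0.90 ± 0.08, Egr2 by 0.87 ± 0.06, the phosphatase gene Dusp1 by 0.78 ± 0.03, Jun by 0.75 ± 0.03 and Gadd45b by 0.72 ± 0.03. These are means over a gene's probe sets, and single probe sets of Btg2 (2.17-fold) and Gadd45b (2.22-fold and 2.02-fold) were called and passed without any 1 array. Egr1, which many studies use as an activity marker, fell by 0.23 ± 0.03 and missed the threshold without CMS replicate 1 or 2 or control replicate 1 or 3 (adjusted p of up to 0.0738).

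Atf3, a stress-induced bZIP factor, differed from the others in its baseline. It was at 0.56, 0.21 and 0.46 in CMS, against 2.47, 2.37 and 2.71 in control, with a log2 fold change of -2.10 ± 0.13. The control PFC lay 2.54 above the other control areas, which were all near 0. The 3 members that rose were Ier5, Bdnf and Dusp4. Each missed the threshold in 5 of the 6 fits without 1 array, Ier5 and Bdnf in all but that without control replicate 3 and Dusp4 in all but that without control replicate 1, with adjusted p of up to 0.0742, 0.0753 and 0.116. Bdnf, the brain-derived neurotrophic factor, was at -0.27, -0.19 and -0.26 in CMS, against -0.59, -0.57 and -0.45 in control (log2 fold change 0.30 ± 0.05, adjusted p = 0.0245).

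**Figure D3:**
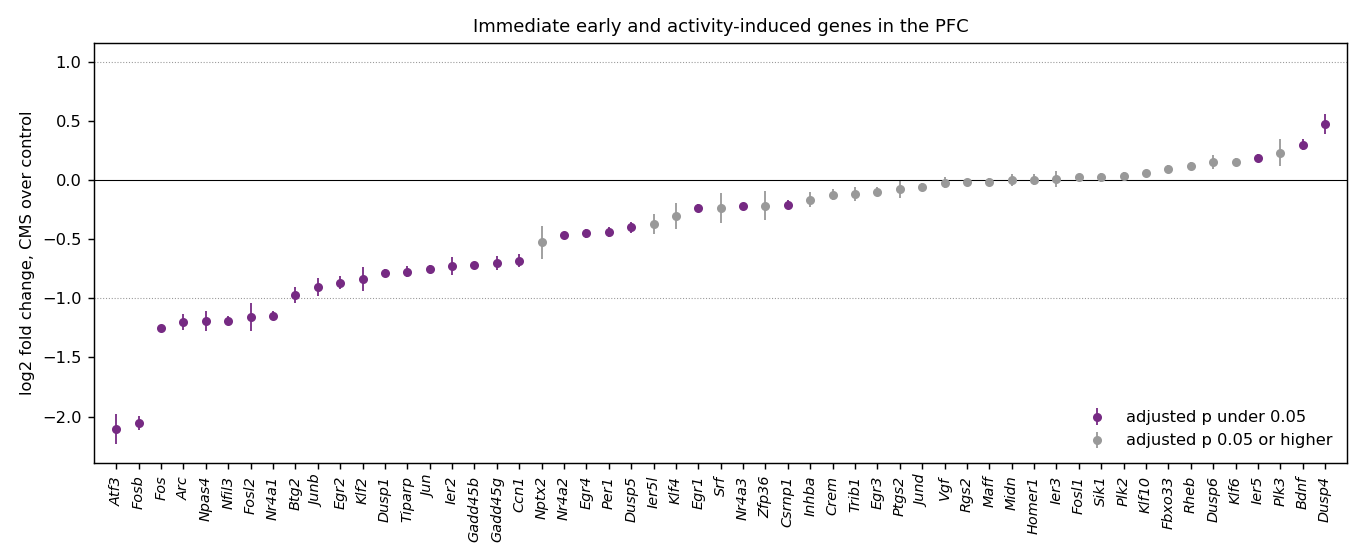
Log2 fold change of CMS over control in the PFC for the 55 immediate early and activity-induced genes, sorted by size (bars are SE from limma, 3 arrays per condition; purple points have an adjusted p under 0.05; dotted lines mark a 2-fold change). Purple points run from Atf3 at -2.10 to Dusp4 at 0.47, with 26 below 0 and 3 above.

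Many genes of this group are switched on through CREB, a factor that binds the sequence TGACG. The 250 bases before the transcription start, from RefSeq, were therefore read for TGACG on either strand (CGTCA on the strand shown), and 43 of the 55 members had such a window. TGACG was present in 28 of the 43, in 18 of the 23 lower members with a window and in 6 of 7 of those past the 2-fold threshold, against 17.8% of 32851 windows of all genes. The full palindrome TGACGTCA, which contains TGACG on both strands, was in 4 of the 43, in 2 of the 23 lower members and in 0 of the 7 past the 2-fold threshold, against 1.55% of all windows. The CArG box, which serum response factor binds, gave the same 4, 2 and 0, against 1.47% of all windows. The windows of the 3 Fos family members and of Nr4a1 are shown because these genes fell past the 2-fold threshold, 3 of them belong to 1 family, and they differ in this motif. TGACG and CGTCA are in capitals in the sequences, which run 5′ to 3′ in the direction of transcription. The list counts are of genes and the background is of windows, so the 2 kinds of share are not like for like. Members that were not lower also carried TGACG, so its presence is not tied to the decrease. A match of letters describes the window and does not show binding.
Fos: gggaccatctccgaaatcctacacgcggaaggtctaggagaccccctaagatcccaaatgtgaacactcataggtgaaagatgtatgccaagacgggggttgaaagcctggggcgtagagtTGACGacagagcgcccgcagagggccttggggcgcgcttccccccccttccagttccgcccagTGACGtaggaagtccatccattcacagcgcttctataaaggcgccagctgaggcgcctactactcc
Fosb: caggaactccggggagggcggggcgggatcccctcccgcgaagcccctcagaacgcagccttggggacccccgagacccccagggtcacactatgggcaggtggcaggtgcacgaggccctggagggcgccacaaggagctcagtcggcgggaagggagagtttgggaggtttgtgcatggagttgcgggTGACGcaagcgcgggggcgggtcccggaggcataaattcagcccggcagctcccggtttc
Fosl2: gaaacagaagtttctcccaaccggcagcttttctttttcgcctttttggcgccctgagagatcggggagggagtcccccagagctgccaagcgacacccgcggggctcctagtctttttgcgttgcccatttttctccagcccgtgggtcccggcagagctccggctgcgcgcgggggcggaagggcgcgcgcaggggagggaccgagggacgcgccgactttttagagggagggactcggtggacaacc
Nr4a1: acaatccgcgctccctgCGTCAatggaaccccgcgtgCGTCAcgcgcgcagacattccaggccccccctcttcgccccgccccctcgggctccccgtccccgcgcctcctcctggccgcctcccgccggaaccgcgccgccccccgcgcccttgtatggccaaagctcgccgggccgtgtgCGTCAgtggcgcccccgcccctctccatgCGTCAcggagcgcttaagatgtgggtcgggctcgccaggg

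The Fos window (build GRCm38.p6, chr12:85473640-85473889, plus strand) held 2 matches that begin at -129 and -66 from the start site, and the Fosb window (chr7:19310046-19310295, minus strand) held 1 that begins at -60. The Nr4a1 window (chr15:101266596-101266845, plus strand) held 4. The Fosl2 window (chr5:32136222-32136471, plus strand) held none, which says only that these letters are not in these 250 bases. The decreases of these genes were 1.25 ± 0.02 for Fos, 2.06 ± 0.06 for Fosb, 1.15 ± 0.04 for Nr4a1 and 1.16 ± 0.12 for Fosl2 on the log2 scale.

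Transthyretin had the largest change of the 18193 genes. Ttr, which carries thyroid hormone and retinol in cerebrospinal fluid, was at -5.28, -5.50 and -5.19 in CMS, against 1.83, 1.80 and 1.84 in control. All CMS arrays were low and all control arrays were high, with a log2 fold change of -7.15 ± 0.08 (limma adjusted p = 1.13e-05), and its 4 probe sets were called at decreases of 113-fold to 182-fold. The other choroid plexus genes had smaller changes. Of 29 measured without Ttr, 8 were lower and none was higher, none of them past 2-fold, with a median of -0.13, and between 3 and 6 were lower when any 1 array was left out. Of the 28 that the study did not name from these arrays, 7 were lower, but the list was chosen with earlier results of these data known.

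Kl, the anti-aging hormone klotho, fell by 0.98 ± 0.05 over its 2 probe sets, of which 1 fell 3.92-fold and the other differed by 1.01-fold (adjusted p = 0.429). Clic6, a chloride channel protein of secretory cells, was at -1.50, -1.35 and -1.56 in CMS, against -0.96, -0.94 and -0.99 in control. Igf2, a growth factor of plexus and meninges, fell by 0.28 ± 0.02. Kcne2, a potassium channel subunit that marks plexus epithelium, was at -0.15, -0.15 and 0.01 in CMS, against 0.20, -0.01 and 0.67 in control (adjusted p = 0.285), so its groups overlapped. Folr1, the folate receptor of the plexus, overlapped too (adjusted p = 0.155). Without Ttr, the mean of the plexus list ranged from -0.18 to -0.17 over the CMS arrays and from 0.06 to 0.10 over the control arrays. The difference of these means was -0.25, and -0.48 with Ttr included. Of 29 ependymal and cilia genes 1 rose and none fell.

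Genes of deep forebrain nuclei made up another group of decreases. Of 30 hypothalamic and basal forebrain genes 8 were lower and 1 was higher, and 4 of the lower ones were past 2-fold. Between 3 and 5 were lower without any 1 array, and 2 by the methods' t-test. Of the 28 that the study did not name from these arrays, 6 were lower. The list was chosen with earlier results of these data known, so neither count is independent evidence. Irs4, an insulin receptor substrate of the hypothalamus, was at -0.01, -0.01 and -0.02 in CMS, against 1.38, 1.50 and 1.69 in control. One of its 2 probe sets fell 8.49-fold and the other differed by 1.01-fold. Baiap3, a protein of dense-core vesicle release, was at 0.40, 0.11 and 0.26 in CMS, against 1.45, 1.45 and 1.59 in control. Lhx8, a factor of cholinergic basal forebrain neurons, and Gpr101, an orphan receptor, fell by 1.30 ± 0.22 and 1.45 ± 0.27, and each missed the threshold without any 1 array other than CMS replicate 2, with adjusted p of up to 0.0903 and 0.0982. Among all probe sets, that of Gpr101 was not called (adjusted p = 0.0522).

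Striatal and myelin genes were lower by small amounts. Of 25 striatal genes 11 were lower and 1 was higher, with a median of -0.20, and 4 to 7 were lower without any 1 array. Scn4b, a sodium channel subunit of striatal neurons, was at 0.61, 0.62 and 0.57 in CMS, against 1.16, 1.20 and 1.23 in control. Drd2 fell by 0.53 ± 0.06. Of 25 myelin and oligodendrocyte genes 11 were lower and none was higher, with a median of -0.24, and 6 to 9 were lower without any 1 array. Myrf, the master regulator of myelin genes, fell by 0.67 ± 0.06, Mobp, a structural myelin protein, by 0.36 ± 0.02 and Mog, an outer myelin protein, by 0.24 ± 0.02. The mean of the striatal list ranged from 0.67 to 0.71 over the CMS arrays and from 0.88 to 0.93 over the control arrays. That of the myelin list ranged from -0.29 to -0.25 over the CMS arrays and from -0.08 to -0.03 over the control arrays.

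Lists of cortical neuron and receptor genes held no member past the 2-fold threshold. Of 33 cortical layer genes 4 were higher (12.1%) and 3 were lower (9.09%), against 4.45% and 3.92% of all genes. The list median was 0.00, and without any 1 array 1 to 4 were higher and 2 to 5 lower. Of 28 interneuron genes 6 were higher (21.4%) and 2 were lower (7.14%), but at most 3 and 1 passed without any 1 array. Of 37 monoamine, opioid and peptide receptor genes none rose and 2 fell, of which Drd2 is also in the striatal list. Of 36 glutamate receptor and synapse genes 1 rose (2.78%) and 4 fell (11.1%), or 1 to 2 and 1 to 4 without any 1 array. The list median was -0.11, and at an unadjusted limma p under 0.05, 16 were lower and 1 was higher. Snap25, a vesicle fusion protein, was the 1 that rose, by 0.36 ± 0.04 (adjusted p = 0.0126), against the lean of its list.

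Stress hormone targets gave no common direction. Of 26 glucocorticoid response and stress axis genes 2 rose and 5 fell, with a median of 0.02, and without any 1 array 0 to 2 rose and 3 to 5 fell. Ddit4, an inhibitor of mTOR induced by stress, was at -0.44, -0.38 and -0.34 in CMS, against 0.30, 0.27 and 0.49 in control. Fkbp5, the glucocorticoid receptor's co-chaperone, differed by 0.14 ± 0.06 (adjusted p = 0.241) and Nr3c1, the receptor itself, by 0.09 ± 0.02 (adjusted p = 0.0851). Clock genes were split, with 6 of 20 higher and 4 lower, or 2 to 5 higher and 2 to 3 lower without any 1 array. Ciart, a circadian repressor, rose by 0.51 ± 0.04 and Per2, a core clock repressor, by 0.48 ± 0.05, while Per1, which light and activity induce, fell by 0.44 ± 0.04.

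Genes of the respiratory chain and of the ribosome shifted upward slightly. Of 76 oxidative phosphorylation genes 17 were higher and none was lower, with a median of 0.06, and between 8 and 20 were higher without any 1 array, where the smallest count came without CMS replicate 2. Cox6c, a subunit of complex IV, rose by 0.29 ± 0.02, and Ndufb5, a subunit of complex I, rose by 0.26 ± 0.02. Of 44 ribosomal protein genes 10 were higher and none was lower, and between 2 and 6 were higher without any 1 array. Of 29 heat shock and folding genes 8 were lower and 4 were higher, or 4 to 6 lower and 2 to 4 higher without any 1 array, and Dnajb1, a co-chaperone, fell by 0.29 ± 0.02. Spike-in RNAs added during labelling also stood higher on the CMS arrays, by 0.65 for the poly-A controls, and their part in these small shifts was not tested.

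**Figure D4:**
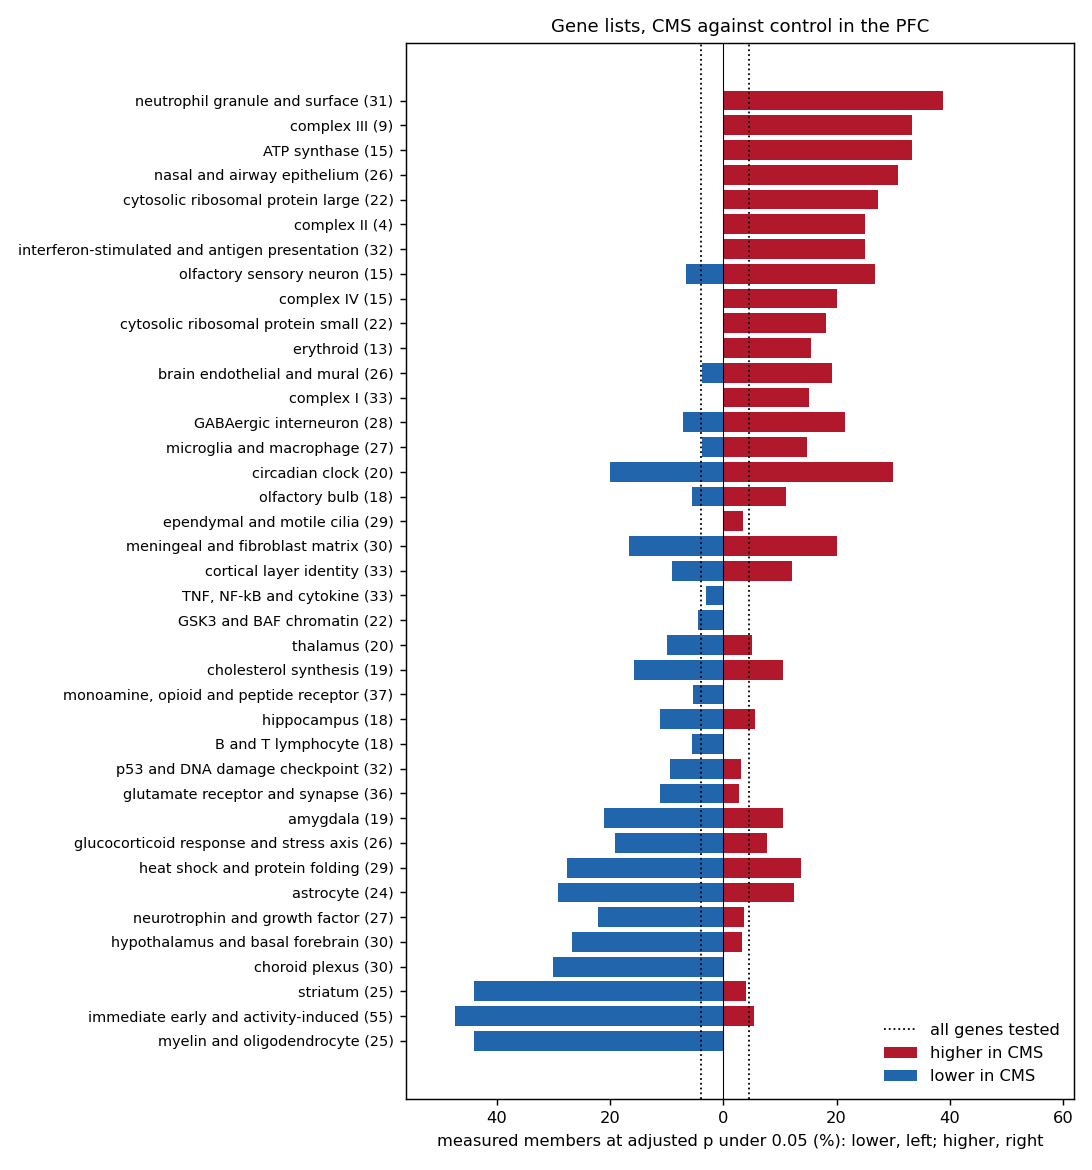
Share of the measured members of each gene list that were higher (right, red) or lower (left, blue) in CMS PFC at a limma adjusted p under 0.05, in percent, with the number of measured members in brackets. Dotted lines mark the shares over all 18193 genes, 4.45% higher and 3.92% lower. The lists of genes named by the study are not drawn. Of the lists drawn, the neutrophil list reaches furthest to the right with 12 of 31 members, and the immediate early list furthest to the left with 26 of 55.

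Counts of 0 in these lists rest on limma's adjusted p. At an unadjusted p under 0.05, 0 of the neutrophil, nasal, ependymal and interferon genes were lower and 0 of the choroid plexus and cytokine genes were higher. The same threshold gave 2 lymphocyte, 3 receptor and 1 myelin gene higher and 1 erythroid, 2 oxidative phosphorylation and 1 ribosomal protein gene lower. By the methods' t-test, adjusted in the same way, the count was 0 in each of these cases.

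The genes that the study's text named for its amygdala network, given next, did not pass in the PFC. Others that it named for other areas, such as Npas4, Egr2 and Vwf, passed, as given above. Gsk3b, a kinase of the Wnt and insulin pathways, differed by -0.03 ± 0.05 and Rest, a repressor of neuronal genes, by -0.05 ± 0.04. Smarca4, a chromatin remodelling ATPase, was at -0.14, -0.23 and 0.04 in CMS, against 0.18, 0.19 and 0.58 in control (adjusted p = 0.130), and did not pass. E2f1, a cell cycle factor, Nrp1, a semaphorin receptor, and Cbln1, a synapse organiser, had adjusted p of 0.488, 0.0695 and 0.368. Outside these genes, Hspa8, a constitutive chaperone, fell by 0.37 ± 0.05. It missed the threshold without CMS replicate 2 or any 1 control array (adjusted p of up to 0.0609). Of the remaining genes that the study named for the PFC itself, Clspn, a DNA replication checkpoint adaptor, fell by 0.70 ± 0.07 and Ccn1, a matrix protein of the immediate early class, by 0.68 ± 0.06. In Clspn 1 of 2 probe sets was called, and in Ccn1 2 of 4, of which the one at 2.2-fold missed the threshold without each of the 6 arrays in turn (adjusted p of up to 0.113). Rab14, a vesicle traffic GTPase, fell by 0.24 ± 0.03 over its 7 probe sets, of which 1 was called at 2.32-fold, and the gene missed the threshold without CMS replicate 1 or 2 or control replicate 2.

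Among the largest decreases of single probe sets, Cryl1, a dehydrogenase also called lambda-crystallin, Dlk1, an imprinted Notch pathway ligand, and Sf1, a splicing factor, each had 1 called probe set, at 3.74-fold, 3.53-fold and 3.01-fold, while their other probe sets had folds of 1.00 to 1.29 and did not pass. The called probe set of Cryl1 missed the threshold without each of the 6 arrays in turn, with an adjusted p of up to 0.110. That of Dlk1 missed it without CMS replicate 3 or any 1 control array (up to 0.0718), and that of Sf1 without control replicate 3 (0.0511). AW551984, a gene of unassigned role here, had 1 of 3 probe sets called, at 2.52-fold.

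Whether the PFC effect differed from that of the other areas was tested on the effects themselves, in 1 fit of all 24 arrays. The log2 effects of CMS were compared with their sign. Against the mean of the other 3 areas, the PFC effect was more positive by over 1 in 39 genes (0.214%). It was more negative by over 1 in 26 genes (0.143%). More negative does not mean weaker, since a stronger decrease in the PFC, such as that of Ttr, also counts as more negative. Over all probe sets, those with no gene symbol included, the balance was the opposite, with 83 more positive (0.184%) and 242 more negative (0.537%). Against the cerebral cortex, the nearest labelled tissue, the effect was more positive in 46 genes (0.253%) and more negative in 55 genes (0.302%). Over probe sets it was more positive in 169 (0.375%) and more negative in 676 (1.5%). Since these counts rest on 2 effects each, a difference can come from a change in the other area.

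The nasal and secondary granule genes differed because they moved in the PFC. Bpifb9b changed by -0.05 in the cerebral cortex, while amygdala and hippocampus gave 0.05 and -0.06, and its PFC effect exceeded their mean by 6.21 ± 0.03. Ngp changed by -0.02, 0.02 and -0.03 in those areas, and its difference was 5.31 ± 0.07. Of the nasal list 8 of 26 members, and of the neutrophil list 7 of 31, had a more positive effect in the PFC by this rule. Both lists hold genes that the study named for their rise in the PFC, such as Ngp and Cbr2. These counts are therefore not independent evidence that the areas differ. S100a8 did not, since it rose by 3.60, 2.97 and 1.43 in those areas, and its PFC effect differed from their mean by 0.90 ± 0.32 (adjusted p = 0.0808). Vwf likewise rose by 1.16, 2.62 and 1.21 in those areas, and its difference from their mean was 0.10 ± 0.23 (adjusted p = 0.796).

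Most immediate early genes gave no such difference. Of the 55 members only Atf3 passed the rule against the mean of the other areas, by -2.10 ± 0.10, because its changes there were -0.07 in the cerebral cortex, 0.11 in the amygdala and -0.05 in the hippocampus. Fosb had log2 fold changes of -1.77, -1.16 and -0.68 in those areas. Its PFC effect differed from their mean by -0.85 ± 0.16 (adjusted p = 0.00177) and from that of the cerebral cortex by -0.29 ± 0.20 (adjusted p = 0.300). Fos had changes of -1.13, -0.67 and -1.36 in those areas, and its difference from the cerebral cortex was -0.12 ± 0.07 (adjusted p = 0.236). Arc and Npas4 differed from the mean of the other areas by 0.09 ± 0.12 and 0.20 ± 0.23, with adjusted p of 0.639 and 0.581.

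Ttr had log2 fold changes of -6.91 in the cerebral cortex, -3.70 in the amygdala and 0.11 in the hippocampus, so its PFC effect of -7.15 differed from their mean by -3.65 ± 0.07, but from the cerebral cortex by -0.24 ± 0.09 (adjusted p = 0.0727). The remaining choroid plexus genes set the PFC and the cerebral cortex apart, because 12 of 30 members had an effect that was higher in the PFC by the rule. Kcne2 changed by -0.38 in the PFC and fell by 4.36 in the cerebral cortex, and Folr1 changed by -0.72 in the PFC and fell by 4.00 in the cerebral cortex. Striatal genes ran the other way, with 14 of 25 lower in the PFC contrast. Drd2 fell by 0.53 in the PFC and rose by 3.02 in the cerebral cortex, and Lrrc10b, a striatal leucine-rich repeat gene, changed by -0.33 in the PFC and rose by 4.35 in the cerebral cortex. In both lists the larger movement was in the cerebral cortex arrays. Both lists hold genes that the study named for their change in the cerebral cortex, such as Kcne2, Folr1 and Drd2. These counts are therefore not independent evidence that the areas differ.

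**Figure D5:**
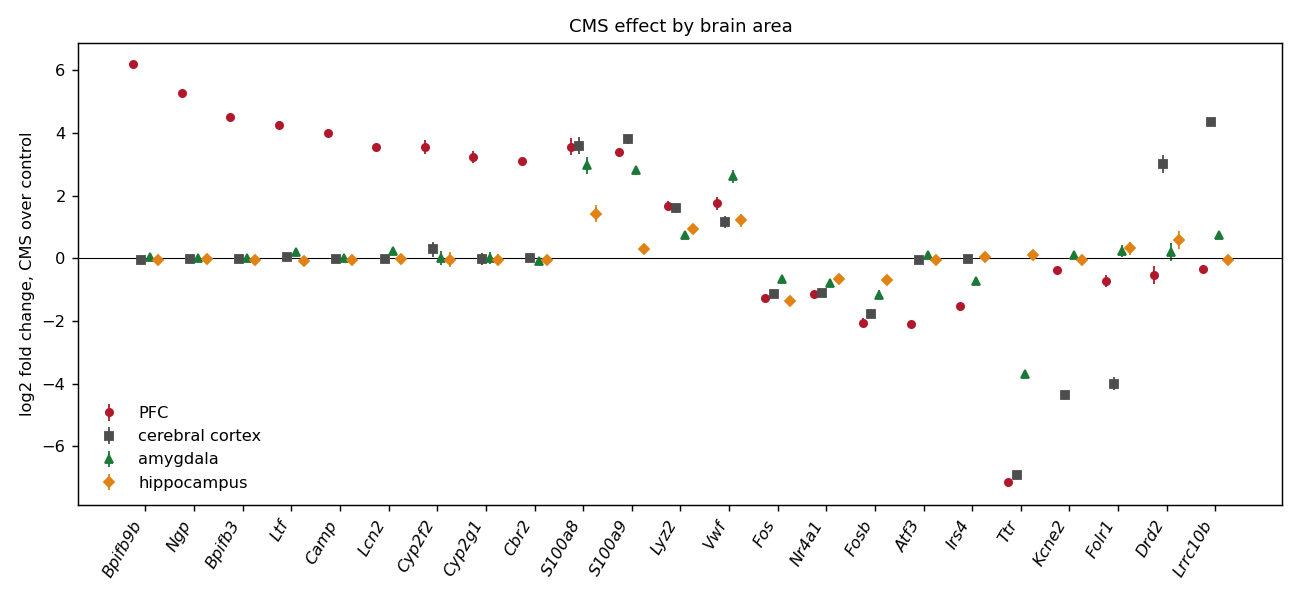
Log2 fold change of CMS over control by brain area for genes of the groups above (bars are SE from limma on all 24 arrays, 3 arrays per condition and area). Bpifb9b is at 6.19 in the PFC and within 0.06 of 0 elsewhere, S100a8 is above 1 in all 4 areas, and Ttr is at -7.15 in the PFC, -6.91 in the cerebral cortex, -3.70 in the amygdala and 0.11 in the hippocampus.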

How the data were processed

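The deposited series matrix holds log2 values that the authors made from Affymetrix Mouse Genome 430 2.0 arrays by GCRMA in GeneSpring GX, with every probe set then shifted to a median of 0 across the 24 arrays. Labelling used a 2-cycle amplification of RNA. Absolute levels and detection calls were not used here, and the number of arrays limits the precision. Groups were taken from the sample labels. The 64 control probe sets were set aside, 45037 probe sets were tested, and symbols came from the platform annotation (34945 probe sets with 1 symbol, 932 with several, 9160 with none). Gene values are means of a gene's probe sets, and 34741 probe sets matched current gene identifiers.

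The 6 PFC arrays were fitted with limma 3.58.1 in R 4.3.3 with moderated tests, and p-values were adjusted by Benjamini-Hochberg over all features. A call needed an adjusted p below 0.05 with more than a 2-fold change, as in the study's methods. Differences between areas came from a fit of 8 group means over 24 arrays. The fits were tested on simulated data. The same replicate numbers were not found to pair the arrays. Genes named are the 15 largest increases and the 15 largest decreases among called probe sets with 1 symbol, genes named in the study's text, up to 6 members of each list, and the 10 largest differences per area contrast. Further list members were named after their values were seen. The 41 lists hold 1128 memberships, of which 1001 were measured. The members and lists were chosen with earlier results of these data known. The settings varied were the test (a fit to all arrays, or the methods' t-test), quantile normalization, median centring, an SD filter, trend and robust moderation, array weights, a replicate block, a stricter adjusted p of 0.01, gene values from only the most variable probe set, and each array left out.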

Additional observations from a re-analysis of the deposited data

Results flagged for a closer look

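The effect of CMS in the PFC differed from the mean effect in the other 3 areas by a test of the difference itself (limma, fit of 24 arrays), and the 10 genes with the largest differences on the log2 scale were Bpifb9b (6.21), Ngp (5.31), Bpifb3 (4.53), Ltf (4.20), Camp (4.04), Ttr (-3.65), Lcn2 (3.48), Cyp2f2 (3.47), Cyp2g1 (3.25) and Cbr2 (3.13). Against the cerebral cortex alone, the 10 largest differences were those of Bpifb9b (6.24), Ngp (5.32), Lrrc10b (-4.69), Bpifb3 (4.54), Ltf (4.21), Camp (4.05), Kcne2 (3.98), Drd2 (-3.55), Lcn2 (3.55) and Folr1 (3.27). For Lrrc10b, Kcne2, Drd2 and Folr1 the PFC effect itself did not exceed 1 on the log2 scale.

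Control probe sets that no comparison used also differed between the conditions. The 24 poly-A spike-in probe sets averaged 0.04 ± 0.03 on the CMS arrays and -0.61 ± 0.11 on the control arrays (SD, n = 3 each), a difference of 0.65. The 18 hybridisation spike-in probe sets averaged 0.14 ± 0.03 on the CMS arrays and -0.17 ± 0.05 on the control arrays, a difference of 0.31. The difference between the 5′ and 3′ probe sets of β-actin averaged 0.07 ± 0.07 on the CMS arrays and -0.13 ± 0.08 on the control arrays, and that of Gapdh averaged -0.02 ± 0.02 on the CMS arrays and -0.01 ± 0.01 on the control arrays. The part of these shifts in the small changes of many genes was not tested.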

How the results depend on the processing

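The 94 called probe sets became 50 by the methods' t-test, 147 after quantile normalization and 48 at an adjusted p under 0.01. The 45 called genes became 75 after quantile normalization. The 2367 probe sets past the adjusted p alone became 536 by the methods' t-test, 1434 with trend and robust moderation and 3934 with array weights, and 725 to 1337 when 1 array was left out. The array weights used the gene-by-gene algorithm, chosen after seeing the data because the default one did not converge. The 101 genes whose effect differed from the cerebral cortex became 182 after quantile normalization. With the replicate number as a block, 9 probe sets (both with and without the fold threshold) and 27 genes were called. Same-numbered arrays did not deviate together (correlations of -0.0102 to -0.0012), and 0 of the 6 arrays correlated best with its own number. With 3 arrays per condition, this does not settle whether same-numbered arrays were paired or processed together. Signs turned for Cdhr1 (-0.62, adjusted p = 0.0517), Omp (-0.24) and Trh (-0.60) after quantile normalization, and for H2-D1 (-0.0943), Ndufa12 (-0.0077) and Nfkbia (0.0471) with the most variable probe set of the gene. The cause was not tested. Over 247 genes and 15 alternatives, 2432 of 3678 values kept their direction and side of the threshold and 1240 kept only the direction. With 3 arrays against 3, an exact permutation test of 1 gene cannot go below 0.1, and values at the array floor cannot be told from absence.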
